A study of Mus musculus with 2 samples.

Results

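Apoe, Cd63, Clu, App, Cacnb2, Nedd4, Prdx2 and Plcb1 are 8 of the 32285 genes counted in single-cell RNA profiles of mouse bone marrow progenitors. They were chosen by symbol because their RNA was lower in Phf6 knockout (KO) cells of at least 1 lineage, so their KO over WT values are given as a description and not as a test. In both groups, bone marrow cells were transduced with a vector carrying the RUNX1-S291fs mutation and GFP, sorted for GFP and transplanted into recipient mice. The groups differ in the donor genotype, wild-type (WT) or Phf6 KO, and each is 1 library of GFP-positive, lineage-negative (Lin-) cells sorted from recipient marrow 8 weeks after transplant. Each group thus carries the RUNX1 mutation, and the sources used here give neither age, strain nor number of mice. Cells of 1 library are not replicates. Intervals below are exact 95% intervals for counting error only, no p-value was computed, and no difference has a check between mice.

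The 8 genes do not form 1 pathway. Apoe and Clu encode secreted proteins: apolipoprotein E carries cholesterol between cells and is made by macrophages, and clusterin is an extracellular chaperone that is also stored in platelet granules. Cd63 and App encode membrane proteins: CD63 is a tetraspanin of lysosomes and secretory granules, and the amyloid precursor protein is a surface protein that is cut by secretases. Cacnb2 encodes a β subunit of voltage-gated calcium channels. The other 3 products act inside the cell: Nedd4 is a ubiquitin ligase, peroxiredoxin 2 is a peroxide-reducing enzyme abundant in red cells, and Plcb1 is a phospholipase C that acts downstream of Gq-coupled receptors.

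Promoters are shown for the genes that held a searched motif within a RefSeq window (GRCm38.p6) beginning near the annotated gene start: Apoe, whose RNA was lower in stem-like and megakaryocyte-like KO cells, and Nedd4, whose RNA was lower in monocyte-like KO cells. Both sequences are the 250 bases before the transcription start, 5′ to 3′ on the gene's strand, with motif letters in capitals. They lie at chr7:19699189-19699438 on the minus strand for Apoe and at chr9:72662081-72662330 on the plus strand for Nedd4.
Apoe: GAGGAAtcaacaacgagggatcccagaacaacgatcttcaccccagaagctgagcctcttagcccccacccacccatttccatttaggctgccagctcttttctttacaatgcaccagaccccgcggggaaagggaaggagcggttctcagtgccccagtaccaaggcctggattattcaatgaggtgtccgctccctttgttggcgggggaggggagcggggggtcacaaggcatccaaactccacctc
Nedd4: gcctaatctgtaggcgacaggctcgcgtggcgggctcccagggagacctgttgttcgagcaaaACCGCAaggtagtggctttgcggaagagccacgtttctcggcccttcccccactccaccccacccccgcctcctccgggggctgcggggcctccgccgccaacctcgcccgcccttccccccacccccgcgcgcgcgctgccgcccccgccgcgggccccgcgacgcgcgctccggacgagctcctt
The search used the RUNX letters TGTGGT or TGCGGT, the GATA letters AGATAA and the PU.1 letters GAGGAA on both strands, and no 2 matches overlapped. RefSeq promoters were found for 7 of the 8 genes. A RUNX match was found in the Nedd4 window, on the opposite strand and 187 to 182 bases before the start, and 18.59% of all 32851 promoters of the same length held one. The Apoe window held 1 PU.1 match, 250 to 245 bases before the start, against 23.25% of all promoters with at least one. The Cd63 entry held 2 PU.1 matches, but it begins 8356 bases from the GENCODE gene start and is not shown. No GATA match was found in the 7 windows, against 9.988% of all promoters. A match is a description of letters and not a bound site.

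After filtering, 4478 WT and 4709 KO cells were compared, with medians of 24814 and 21421 RNA molecules per cell, each counted by its unique molecular identifier (UMI). Clustering left out the 8 genes, and clusters were named from marker genes, with "like" added because the names rest on RNA alone. The 9 named classes with at least 50 cells in each library were haematopoietic stem and multipotent progenitor (HSC/MPP)-like, erythroid-like, megakaryocyte-like, neutrophil progenitor-like, monocyte-like, basophil or mast cell-like, dendritic cell-like, lymphoid progenitor-like and B cell-like. Another 3 clusters kept only a number: cluster 4 (leading genes Mpo, Alas1, Tifab and Ctsg), cluster 12 (Prg2, Prg3, Ccl9 and Cebpe) and cluster 17 (C1qb, Adgre4, C1qa and Fcgr4). The lymphoid progenitor-like name rests on 3 detected markers with a median log2 fold of 1.03, against a cutoff of 1. The leading gene of that cluster, Cpa3, is among the basophil or mast cell markers. None of the other clusterings tried gave a class of that name with at least 50 cells in each library, so its values below rest on this clustering alone. B cell-like cells (67 WT and 51 KO) are present despite the Lin- sort. The dendritic cell-like cluster is mixed: the lymphocyte genes Gzma and Ccl5 lead it, Klrd1, Cd7, Skap1 and Il7r are among its 10 leading genes, and its T or NK cell markers summed to 916 CPM in WT and 918 in KO. The classes were unequal in the libraries: HSC/MPP-like cells made up 24.0% of WT and 32.3% of KO cells, and erythroid-like cells 6.07% and 2.27%. Counted per 1000000 UMIs (CPM), Phf6 RNA was at 41.8 in the WT and 20.6 in the KO library, but the sources used here do not name the deleted part of the gene, and a tag outside it checks nothing. The libraries shared 10 cell barcodes.

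Over all cells, each of the 8 genes had a lower level in the KO library, and Prdx2, Cd63 and Apoe were lower by at least 1.5-fold. Prdx2 was at 328 CPM (interval 325 to 331) in WT and 169.7 (167 to 172) in KO cells, a log2 ratio of -0.95. Cd63 was at 259 and 162 CPM (-0.68) and Apoe at 118 and 77.9 CPM (-0.60). Of all 8584 genes with a mean of at least 10 CPM, 1.25% were lower by the same fold, a share from which nothing follows here because the 8 genes were chosen on this contrast. Apoe lay just inside that fold at 1.52-fold and Clu just outside it at 1.49-fold, with 25.3 and 16.9 CPM (log2 ratio -0.58). With likely doublets kept, Apoe was at -0.56, short of that fold.
The other 4 genes were lower by smaller amounts. App was at 50.1 and 36.0 CPM (-0.48), Plcb1 at 44.5 and 32.6 CPM (-0.45), Cacnb2 at 51.3 and 38.5 CPM (-0.41) and Nedd4 at 229 and 186 CPM (-0.30). All 8 intervals of the ratio lay below 0, the nearest being that of Nedd4 at -0.32 to -0.27.

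**Figure D1:**
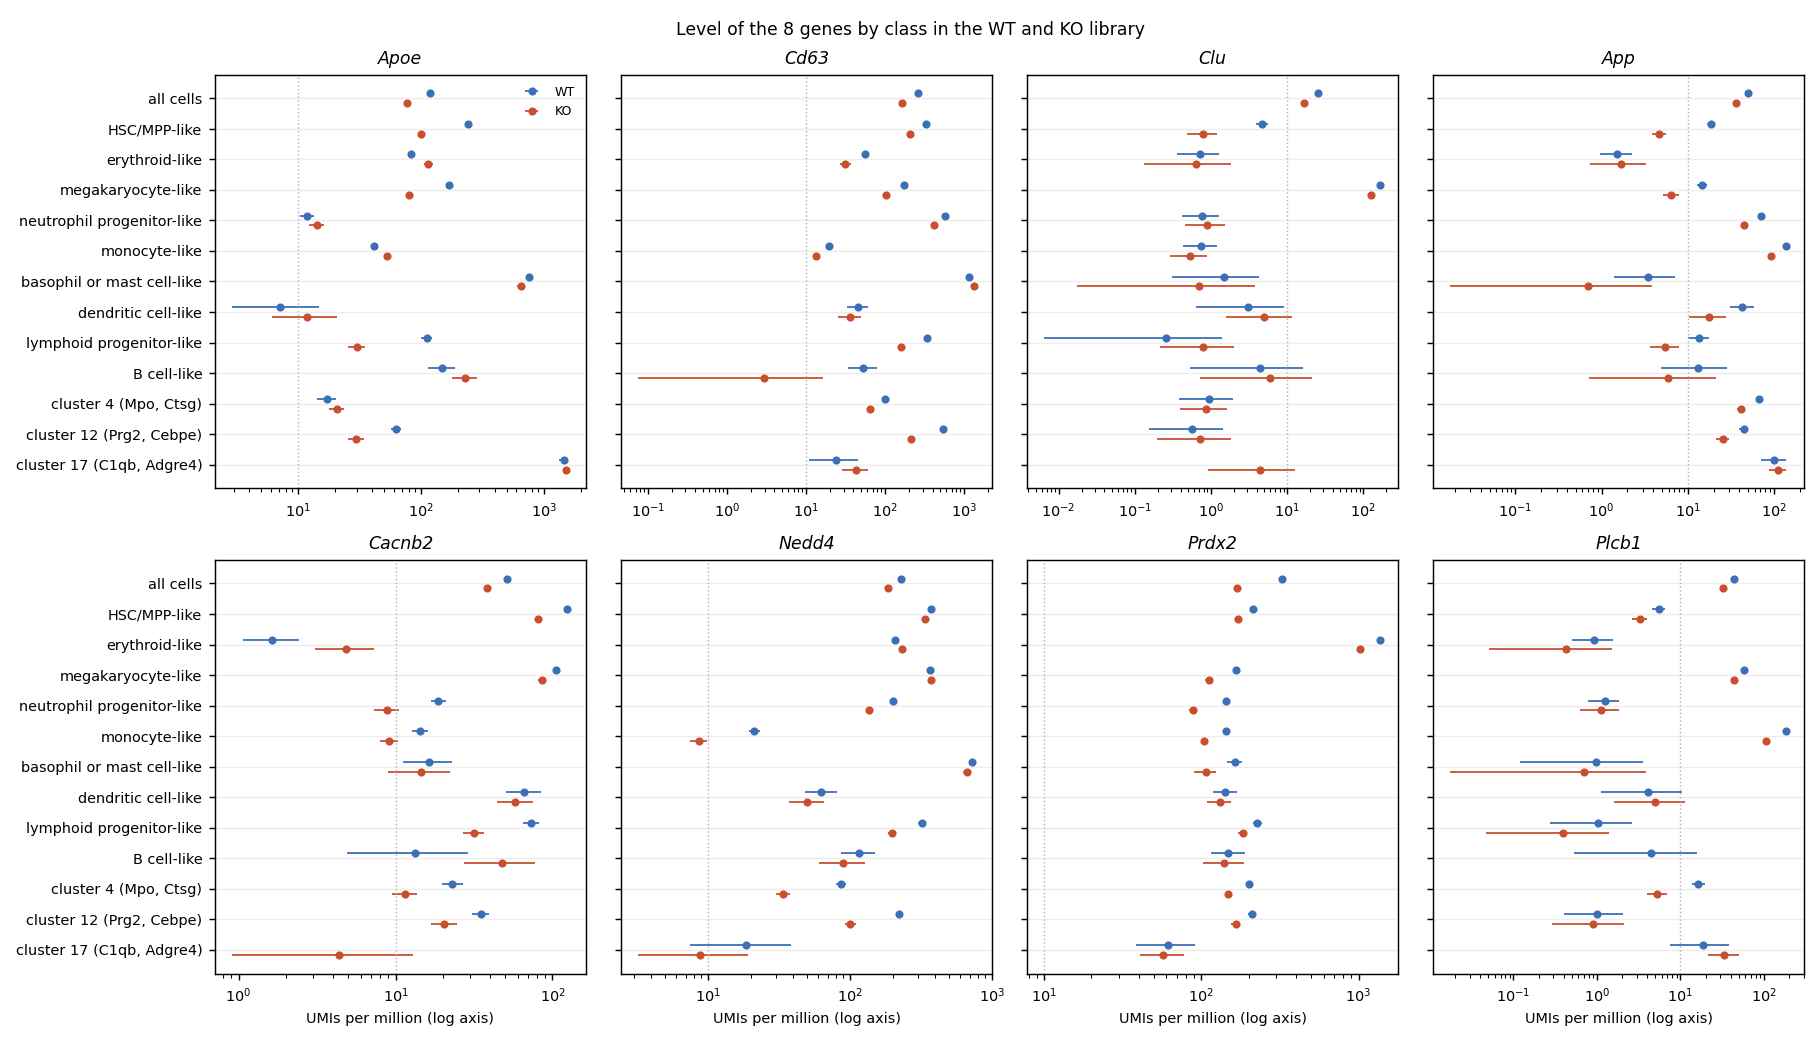
Level of each gene (UMIs per 1000000, log axis) in all cells and in each class or cluster, with WT in blue and KO in red. Bars are exact 95% Poisson intervals, the dotted line marks 10 UMIs per 1000000, and a point at 0 UMIs is not drawn. Prdx2 peaks in erythroid-like cells, Clu in megakaryocyte-like cells, Plcb1 in monocyte-like cells and Apoe in cluster 17.

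These sums mix the makeup of a library with the level inside its cells, and the genes separate when clusters are weighted differently. With the 22 clusters of at least 50 cells per library weighted alike, the Prdx2 log2 ratio was -0.45 and that of Apoe -0.27, both nearer 0 than over all cells. The ratios of App (-0.66) and Plcb1 (-0.72) were further from 0. Cd63 (-0.48), Clu (-0.35), Cacnb2 (-0.43) and Nedd4 (-0.20) also stayed below 0. When KO clusters were given their share of WT cells, Prdx2 was at -0.41, Apoe at -0.55 and Plcb1 at -0.71. All 8 genes remained below 0 under both weightings, but the order of the genes changed: Prdx2 was the lowest over all cells, and Plcb1 under both weightings. The genes past 1.5-fold also changed. Prdx2, Cd63 and Apoe fell short of it under both weightings, and App and Plcb1 passed it under both. Clu passed it only when KO clusters were given their share of WT cells (-0.61).

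**Figure D2:**
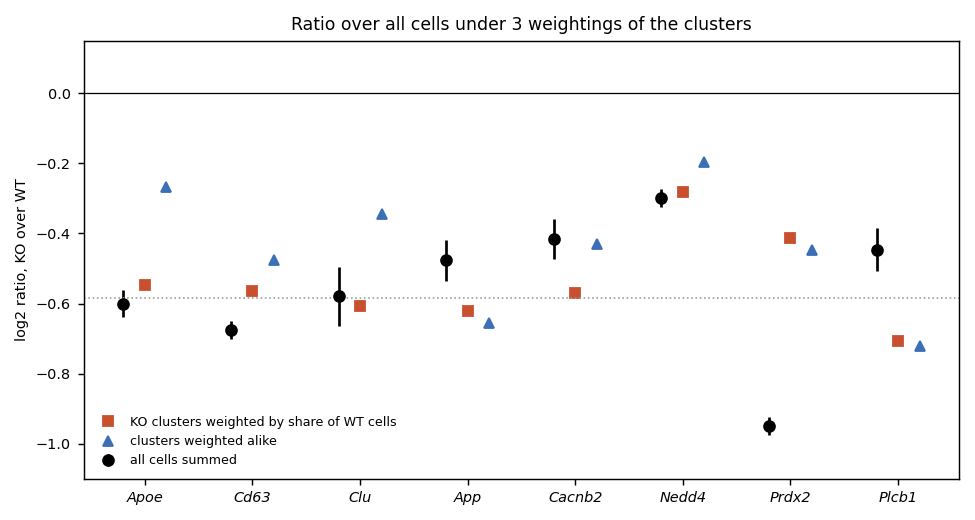
Log2 ratio of KO over WT for each gene, for all cells summed (black, with exact 95% intervals), KO clusters weighted by their share of WT cells (red squares) and clusters weighted alike (blue triangles). The dotted line marks 1.5-fold lower; Prdx2 moves from -0.95 to -0.41 and -0.45, while Plcb1 moves from -0.45 to -0.71 and -0.72.

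Apoe (ENSMUSG00000002985, chromosome 7, 19696109 to 19699188, minus strand, GRCm38 as are all positions below) was lower in stem-like, megakaryocyte-like and lymphoid progenitor-like KO cells and not in red cell or monocyte classes. In HSC/MPP-like cells it was at 243 CPM in WT and 101 in KO cells, a log2 ratio of -1.26 (interval -1.33 to -1.20). In megakaryocyte-like cells it was at 170 and 80.4 CPM (-1.08), and in lymphoid progenitor-like cells at 111 and 30.3 CPM (-1.88, interval -2.15 to -1.61). Cluster 12 was at 62.8 and 29.8 CPM (-1.07). By single cluster the lowest Apoe ratio was -1.91, in megakaryocyte-like cluster 13, whose cells had medians of 2799 WT and 3888 KO UMIs.
Erythroid-like and monocyte-like cells went the other way. Erythroid-like cells were at 82.7 and 115 CPM (0.48, interval 0.33 to 0.62) and monocyte-like cells at 41.7 and 52.8 CPM (0.34, interval 0.22 to 0.46). The erythroid-like sum joins clusters 15 and 18, of which cluster 18 held 114 WT and 33 KO cells, and in cluster 15 alone Apoe was at 162 and 208 CPM (0.36). Neutrophil progenitor-like cells were at 11.8 and 14.3 CPM and cluster 4 at 17.2 and 20.6 CPM, with intervals of the ratio that included 0.
Apoe was at its highest level in cluster 17, whose leading genes include the complement genes C1qa and C1qb of macrophages. There it was at 1457 CPM in WT and 1514 in KO cells (log2 ratio 0.06, interval -0.10 to 0.21). Cluster 17 held 3.91% of all WT Apoe UMIs and 12% of the KO ones. The next level was in basophil or mast cell-like cells, at 765 and 652 CPM, lower by less than 1.5-fold (-0.23, interval -0.35 to -0.11). That ratio was above 0 under 2 other choices of clustering genes (0.075 and 0.097). Macrophage markers summed to 5.08 and 3.25 CPM in HSC/MPP-like cells, where 1 of the 10 markers was at 0 in each library.

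The share of cells with an Apoe UMI differed in the same classes. After thinning each cell to 5000 UMIs, 41.2% of WT and 18.1% of KO HSC/MPP-like cells had one, against 62.0% and 31.7% without thinning. In the mixed dendritic cell-like cluster, the one with the lowest Apoe level, the thinned shares were 0 of 58 WT cells, which allows a share of up to 5.17%, and 1.69% of KO cells. The median depth there was 15502 and 16120 UMIs. Monocyte-like shares were 13.6% and 17.1%. The HSC/MPP-like shares lay above this background in both libraries, but it is the class with the lowest Apoe level, so nothing follows from this. The KO HSC/MPP-like share of 18.1% lay close to the KO monocyte-like share of 17.1%.

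Clu (ENSMUSG00000022037, chromosome 14, 65968483 to 65981547, plus strand) was a megakaryocyte gene in these data, with 94.3% of its WT and 95.8% of its KO UMIs in megakaryocyte-like cells. It was at 167 CPM in WT and 126 in KO cells of that class, a log2 ratio of -0.42 (interval -0.50 to -0.33). Among the 4 megakaryocyte-like clusters, the ratio was -0.99 in cluster 3 (53.3 and 26.9 CPM), which had the lowest Clu level. Cluster 9 was at 310 and 216 CPM (-0.52) and cluster 22 at 171 and 111 CPM (-0.63). Cluster 13, whose cells had medians of 2799 WT and 3888 KO UMIs, was at 274 and 281 CPM (0.03, interval -0.25 to 0.31).
Clu was below 10 CPM in each other class. HSC/MPP-like cells held 109 WT and 21 KO UMIs (4.73 and 0.784 CPM), and 3.54% and 0.985% of these cells had one. Thinned to 5000 UMIs, the shares were 1.14% and 0.267%. In lymphoid progenitor-like cells, which can serve as a background and had medians of 21942 and 20128 UMIs, they were 0 of 173 thinned WT cells, which allows a share of up to 1.73%, and 0.420% of KO cells. Neither HSC/MPP-like share lay above what this background allows. That limit follows from the 173 cells alone, so it cannot place the WT share of 1.14%. By level, Clu in neutrophil progenitor-like cells was at 0.756 CPM (interval 0.414 to 1.27) in WT and 0.886 (0.458 to 1.55) in KO. The WT HSC/MPP-like level of 4.73 CPM lay above these, and the KO level of 0.784 CPM did not.

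**Figure D3:**
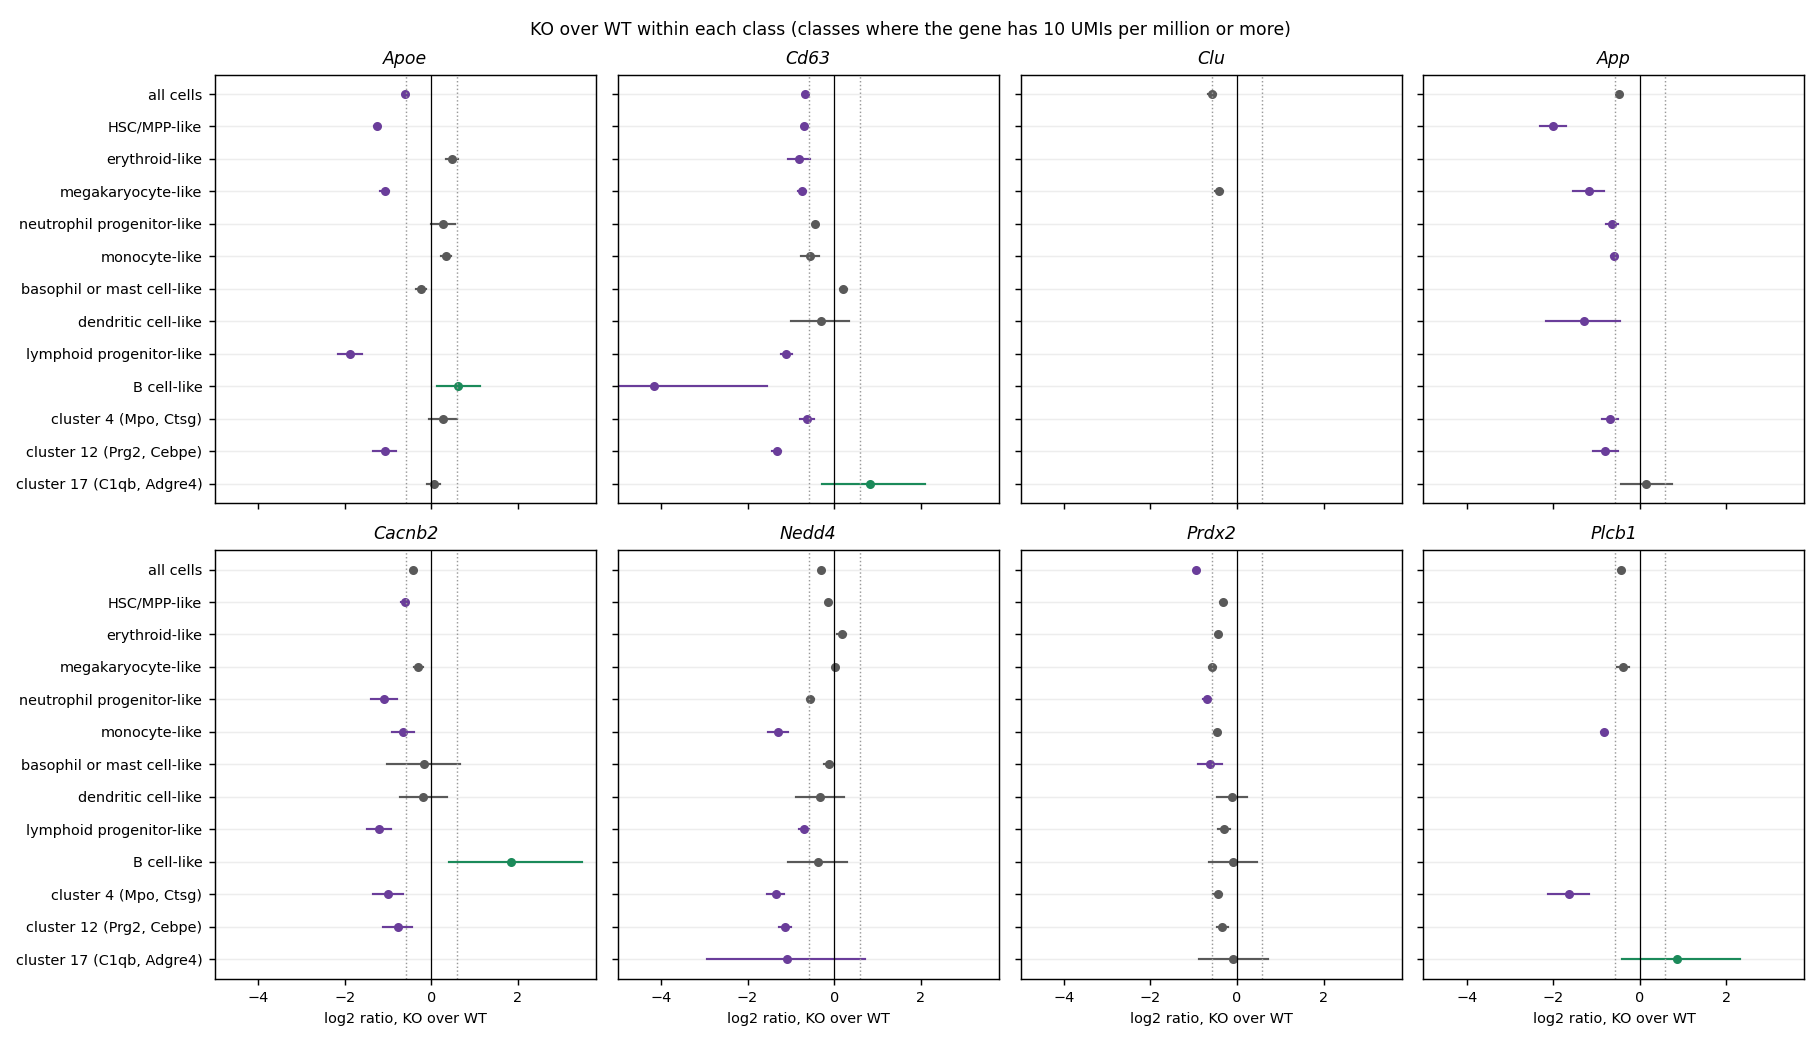
Log2 ratio of KO over WT in all cells and in each class or cluster where the gene had a mean of at least 10 UMIs per 1000000, with exact 95% intervals. Purple marks at least 1.5-fold lower, green at least 1.5-fold higher and grey neither, dotted lines mark 1.5-fold, and the Cd63 interval in B cell-like cells continues past the axis; both Apoe and Nedd4 are at least 1.5-fold lower in lymphoid progenitor-like cells and cluster 12, and Prdx2 lies below 0 in each class or cluster.

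Cd63 (ENSMUSG00000025351, chromosome 10, 128900989 to 128912822, plus strand) was lower in most progenitor classes, and basophil or mast cell-like cells were an exception. HSC/MPP-like cells were at 333 CPM in WT and 207 in KO (-0.69, interval -0.74 to -0.64). Megakaryocyte-like cells were at 175 and 104 CPM (-0.75), and lymphoid progenitor-like cells at 343 and 159 CPM (-1.11).
Cluster 12 had the lowest ratio among classes with at least 100 cells per library, at 540 and 214 CPM (-1.33). Eosinophil markers also differed there, from 5788 CPM summed over the 6 genes in WT to 660.5 in KO, where 2 of the 6 were at 0. Without the 23 WT and 1 KO cells of cluster 12 that held at least 50 UMIs of Prg2, an eosinophil granule gene, Cd63 was at 411 and 195 CPM (-1.08).
Neutrophil progenitor-like cells held more Cd63 UMIs than any other class in either library, 34.5% of the WT and 31.9% of the KO total. They were at 573 and 422 CPM (-0.44), short of 1.5-fold. Basophil or mast cell-like cells had the highest level, at 1147 and 1327 CPM (0.21, interval 0.12 to 0.30). Monocyte-like cells were low in both, at 19.9 and 13.5 CPM (-0.56). Erythroid-like cells were at 55.3 and 31.6 CPM (-0.81), but this ratio was 0.54 when the 8 genes were kept among the clustering genes.
Across the 21 clusters with a mean of at least 10 CPM, 19 Cd63 ratios lay below 0, and 18 of them with the whole interval. The lowest was in B cell-like cells (24 WT UMIs and 1 KO UMI, ratio interval -9.53 to -1.55).

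App (ENSMUSG00000022892, chromosome 16, 84949685 to 85173766, minus strand) had its level in monocyte and neutrophil classes and its largest relative difference in stem-like cells, where it was low in both libraries. Monocyte-like cells were at 139.5 CPM in WT and 92.2 in KO (-0.60, interval -0.68 to -0.52) and held 50.1% of WT and 61.2% of KO UMIs. Neutrophil progenitor-like cells were at 70.9 and 45.6 CPM (-0.64), cluster 4 at 67.3 and 41.6 CPM (-0.69) and cluster 12 at 44.6 and 25.7 CPM (-0.80).
HSC/MPP-like cells held 431 and 125 App UMIs, or 18.7 and 4.67 CPM (-2.00, interval -2.30 to -1.71). Thinned to 5000 UMIs, 6.91% of WT and 2.20% of KO cells of that class had an App UMI. In erythroid-like cells, with 1.51 and 1.69 CPM, 1.13% of thinned WT cells and 0 of 106 KO cells had one, and that 0 allows a share of up to 2.83%. Megakaryocyte-like cells were at 14.7 and 6.46 CPM (-1.18). Cluster 17 was an exception, at 101 and 111 CPM (0.14, interval -0.44 to 0.74).

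Cacnb2 (ENSMUSG00000057914, chromosome 2, 14603088 to 14987908, plus strand) was highest in stem-like cells, and its ratio was lowest in lymphoid progenitor-like and neutrophil progenitor-like cells. HSC/MPP-like cells were at 123 CPM in WT and 80.4 in KO (-0.61, interval -0.69 to -0.53) and held 46.4% of WT and 50.7% of KO UMIs. Lymphoid progenitor-like cells were at 72.8 and 31.4 CPM (-1.21) and neutrophil progenitor-like cells at 18.8 and 8.79 CPM (-1.09). The latter join cluster 1 (17.4 and 5.42 CPM, -1.68) and cluster 16 (22.6 and 15.6 CPM, -0.54), and the class ratio ran from -1.82 to -0.60 over the alternatives, the latter with doublets kept. Megakaryocyte-like cells were at 105 and 85.3 CPM (-0.30).
The 3 monocyte-like clusters differed among themselves. Cluster 2 was at 12.9 and 3.14 CPM (-2.04), cluster 7 at 21.3 and 18.3 CPM (-0.22, interval -0.52 to 0.09), and cluster 10 at 2.77 and 4.16 CPM. Megakaryocyte-like clusters also differed: cluster 3 was at -0.42, whereas clusters 9 and 22 were both at -0.01. In B cell-like cells 6 WT and 16 KO UMIs gave a ratio of 1.84.

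Within the 5 HSC/MPP-like clusters, the 4 genes that were at least 1.5-fold lower in the class were below WT in each cluster. Apoe was lowest in cluster 0 (132 CPM in WT, 42.0 in KO) and highest in cluster 19 (489 and 329 CPM) in both libraries, and its ratio ran from -1.65 to -0.57. Cluster 0, led by Tox, held 261 WT and 760 KO cells and had the lowest Apoe level and ratio. With the 5 clusters weighted alike, the class ratio of Apoe was -0.78 in place of -1.26.
The ratio of Cd63 was -0.70 with the clusters weighted alike, that of App -1.64 and that of Cacnb2 -0.65. Cd63 ran from -1.07 in cluster 5, led by the mitosis genes Nusap1 and Aspm, to -0.57 in cluster 8. Cacnb2 was highest in cluster 6, led by Nxph1 and the stem cell gene Mecom, at 261 CPM in WT and 161 in KO. App was at 30.3 and 8.46 CPM there. The class also differed in depth, with medians of 19323 WT and 15634 KO UMIs per cell, and in the summed level of the 7 lymphoid progenitor markers, at 66.2 and 186 CPM. The part of these in the ratios was not tested.

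**Figure D4:**
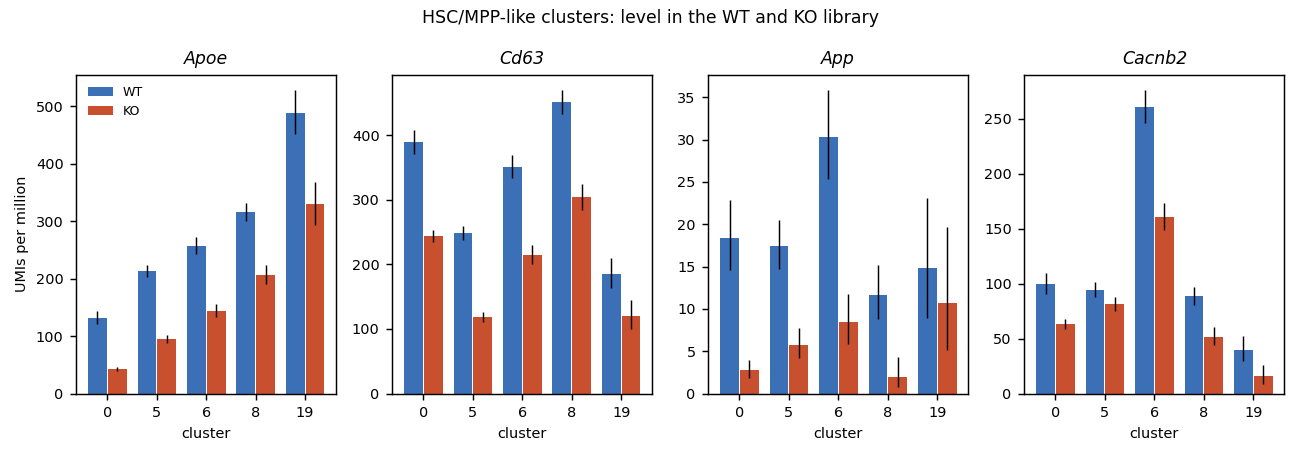
Level (UMIs per 1000000, bars from 0) of Apoe, Cd63, App and Cacnb2 in the 5 HSC/MPP-like clusters, with WT in blue, KO in red and exact 95% Poisson intervals. Each WT bar is taller than its KO bar, and the intervals overlap for App in cluster 19, where the ratio interval was -1.74 to 0.70.

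Nedd4 (ENSMUSG00000032216, chromosome 9, 72662346 to 72749852, plus strand) was lower in monocyte and granulocyte classes and lymphoid progenitor-like cells, and near WT in stem-like, megakaryocyte-like and erythroid-like cells. Monocyte-like cells were at 21.3 CPM in WT and 8.62 in KO (-1.30, interval -1.54 to -1.07). Cluster 4, led by the neutrophil granule genes Mpo and Ctsg, was at 86.3 and 33.8 CPM (-1.35), and cluster 12 at 223 and 101 CPM (-1.14). Lymphoid progenitor-like cells were at 320 and 197 CPM (-0.70) and neutrophil progenitor-like cells at 200.2 and 136 CPM (-0.56).
The HSC/MPP-like and megakaryocyte-like cells, which held the most Nedd4 UMIs, were closer to WT. HSC/MPP-like cells were at 370.0 and 336 CPM (-0.14, interval -0.18 to -0.10), and megakaryocyte-like cells at 368 and 375 CPM (0.03, interval -0.03 to 0.08, and -0.05 with TMM scaling). Erythroid-like cells were at 209 and 234 CPM (0.17). Together these 3 classes held 65.9% of WT and 75.4% of KO Nedd4 UMIs, and neutrophil progenitor-like cells 13.6% and 8.98%, more than erythroid-like cells alone (11.7% and 5.43%). Nedd4 was highest in basophil or mast cell-like cells, at 724 and 669 CPM (-0.11, interval -0.23 to 0.00).

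Prdx2 (ENSMUSG00000005161, chromosome 8, 84969587 to 84974834, plus strand) was an erythroid gene by level, yet its ratio lay below 0 in all 22 clusters compared. Erythroid-like cells were at 1379 CPM in WT and 1016 in KO (-0.44, interval -0.49 to -0.39). They held 54.0% of WT and 25.8% of KO Prdx2 UMIs, with 6.07% and 2.27% of the cells. Over the alternatives, the Prdx2 ratio in this class ran from -0.72 (as a mean per cell) to -0.38 (with doublets kept). Erythroid markers, summed over the 10 genes, were at 926 CPM in WT and 446 in KO over all cells, but at 5438 and 5075 CPM within erythroid-like cells.
Outside that class Prdx2 was more even. Its WT levels were 142 to 226 CPM in the other 8 named classes and in clusters 4 and 12, and its KO levels 88.6 to 183 CPM. Among the classes, the ratio passed 1.5-fold in neutrophil progenitor-like cells (144 and 88.6 CPM, -0.70) and basophil or mast cell-like cells (164 and 107 CPM, -0.62). Of the 22 single clusters 7 passed it, the lowest being megakaryocyte-like cluster 13 (-1.31). HSC/MPP-like cells were at 214 and 171 CPM (-0.33), monocyte-like cells at 143 and 104 CPM (-0.46) and megakaryocyte-like cells at 165 and 111 CPM (-0.57). The cluster nearest 0 was the B cell-like one, at -0.09 (interval -0.66 to 0.47), and 19 of the 22 intervals lay wholly below 0.

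Plcb1 (ENSMUSG00000051177, chromosome 2, 134786067 to 135475258, plus strand) was a monocyte gene in these libraries, with 75.5% of WT and 77.0% of KO UMIs in monocyte-like cells. That class was at 186 CPM in WT and 105 in KO (-0.82, interval -0.90 to -0.75). Its 3 clusters had like ratios: cluster 2 was at 92.7 and 49.995 CPM (-0.89), cluster 7 at 202 and 111 CPM (-0.86) and cluster 10 at 369 and 202 CPM (-0.87). Thinned to 5000 UMIs, 41.5% of WT and 27.8% of KO monocyte-like cells had a Plcb1 UMI, against 0.181% and 0.513% of neutrophil progenitor-like cells.
Megakaryocyte-like cells, the next holder, were at 58.2 and 44.3 CPM (-0.39, interval -0.54 to -0.25). Cluster 4 was at 16.4 and 5.27 CPM (-1.64, interval -2.13 to -1.17). In cluster 17, 7 WT and 23 KO UMIs gave a ratio of 0.86 with an interval of -0.41 to 2.32. No other class reached 10 CPM.

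**Figure D5:**
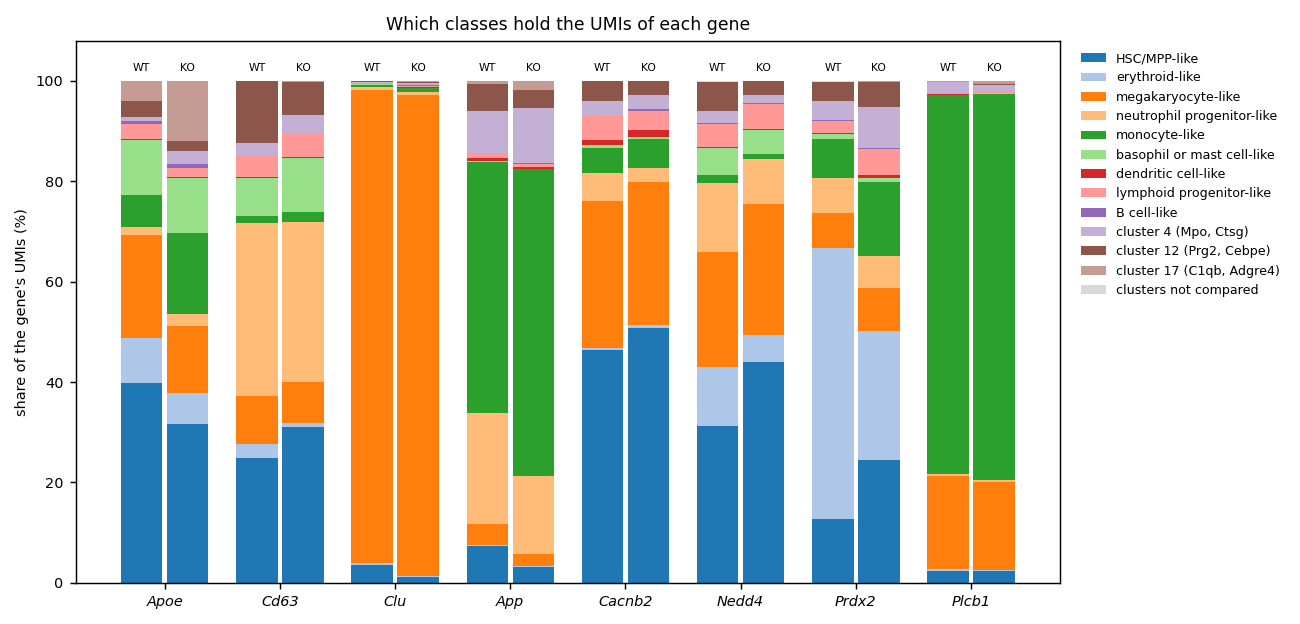
Share of each gene's UMIs (%) in each class or cluster, with the WT library in the left bar and the KO library in the right bar of each pair. Clu sits almost wholly in megakaryocyte-like cells and Plcb1 in monocyte-like cells, while the erythroid-like share of Prdx2 is 54.0% in WT and 25.8% in KO.

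Read by lineage, the genes were lower in different combinations. In HSC/MPP-like cells 4 of the 6 genes with at least 10 CPM (Apoe, Cd63, App and Cacnb2) were at least 1.5-fold lower, where 1.23% of all genes were. In lymphoid progenitor-like cells it was 4 of 5 (Apoe, Cd63, Cacnb2 and Nedd4; all genes 2.74%), and in megakaryocyte-like cells 3 of 8 (Apoe, Cd63 and App; all genes 0.764%).
App and Cacnb2 were lower by at least 1.5-fold in monocyte-like and neutrophil progenitor-like cells and clusters 4 and 12, as in HSC/MPP-like cells. Monocyte-like cells had 4 of 7 lower (App, Cacnb2, Nedd4 and Plcb1; all genes 0.631%), and neutrophil progenitor-like cells 3 of 6 (App, Cacnb2 and Prdx2; all genes 0.999%). Cluster 4 had 5 of 7 (Cd63, App, Cacnb2, Nedd4 and Plcb1; all genes 1.05%) and cluster 12 had 5 of 6 (Apoe, Cd63, App, Cacnb2 and Nedd4; all genes 1.97%). The monocyte-like count was 2 at clustering resolution 2, with a stricter cell filter and with genes that differ between the libraries left out of clustering.
In erythroid-like cells 1 of 4 genes was lower (Cd63; all genes 0.891%), and in basophil or mast cell-like cells 1 of 5 (Prdx2; all genes 5.27%). The remaining units had few UMIs and wide backgrounds. Dendritic cell-like cells had 1 of 5 lower (App; all genes 11.0%). B cell-like cells had 1 lower (Cd63; all genes 19.3%) and 2 higher (Apoe and Cacnb2; all genes 18.3%) of 5, and cluster 17 had 1 lower (Nedd4; all genes 14.2%) and 2 higher (Cd63 and Plcb1; all genes 16.1%) of 6. Since the genes were chosen for lower levels in these classes, the counts are a description.

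The close relatives of the 8 genes mostly lay within 1.5-fold over all cells, as did most genes: 1.25% of all 8584 genes were lower and 2.04% higher. These sums again mix the makeup of a library with the level inside its cells, and the counts are a description. Of the 12 other cholesterol and apolipoprotein genes with at least 10 CPM, none was 1.5-fold lower and 2 were higher (2.04% of all genes were higher): the cholesterol exporter gene Abcg1 (11.5 and 19.0 CPM, 0.73) and the lipoprotein receptor gene Lrp1 (10.5 and 16.7 CPM, 0.66). Apobr was at 11.9 and 16.0 CPM (0.43), and the list's median without Apoe was 0.31, against 0.06 for all genes. Within classes the same median was 0.02 in HSC/MPP-like, 0.13 in megakaryocyte-like, 0.08 in neutrophil progenitor-like and 0.28 in lymphoid progenitor-like cells. Of 14 other tetraspanins 1 was lower, Tspan33 (21.9 and 6.6 CPM, -1.73), which is among the leading genes of erythroid-like cluster 18. Next by size were Cd82 (-0.31) and Cd53 (0.26), and the median was 0.03.
None of the 18 other lysosome and granule membrane genes passed 1.5-fold in either direction, and their median was 0.16, on the other side of 0 from Cd63. Within classes that median was -0.06 in HSC/MPP-like and -0.04 in monocyte-like cells. It was 0.05 in megakaryocyte-like and 0.07 in neutrophil progenitor-like cells. Lamp2, a lysosomal membrane gene like Cd63, was at 138 and 175 CPM (0.34), Npc1 at 0.30 and Grn at 0.26. Among 11 other amyloid precursor and secretase genes none passed, with Sorl1 at -0.50, the secretase gene Adam17 at 0.33 and the App paralogue Aplp2 at 38.7 and 31.7 CPM (-0.29). The single other calcium channel gene with at least 10 CPM, Cacna1a, was at 10.2 and 10.4 CPM (0.02).
None of the 8 other NEDD4 family genes passed, and Nedd4l, the closest paralogue of Nedd4, was at 54.5 and 73.5 CPM (0.43), with Smurf1 at 0.36 and Itch at 0.26. None of the 17 other antioxidant genes passed, although the 3 with the largest difference were on the same side as Prdx2: Glrx5, which serves iron-sulphur cluster assembly (170 and 114 CPM, -0.58), Prdx3 (-0.36) and Prdx6 (-0.34). Within erythroid-like cells Glrx5 was at 661 and 610 CPM (-0.11), Prdx3 at -0.28 and Prdx6 at 0.17. In HSC/MPP-like cells Glrx5 was at -0.22, Prdx3 at -0.20 and Prdx6 at -0.29, and in megakaryocyte-like cells at 0.02, -0.13 and -0.20. None of the 11 other phospholipase C and Gq genes passed, with Plcg2 at 124 and 169.8 CPM (0.45), Gna14 at 0.44 and Itpr2 at 0.34. Of the 4 other chaperone and complement genes, C3 was at 0.51, Cd55 at -0.27, Cd59a at -0.13 and Cr1l at 0.12, and none passed.

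Within the larger classes few relatives passed 1.5-fold, and those named here were chosen after their values were seen. In HSC/MPP-like cells no other measured gene of the 9 lists was lower by that fold, where 1.23% of all genes were. In that class 2 of the cholesterol list were higher (3.40% of all genes were): the receptor gene Vldlr (16.1 and 35.7 CPM, 1.15) and Abcg1 (22.2 and 34.5 CPM, 0.64). In monocyte-like cells Sorl1, which encodes a sorting receptor that binds App, was at 44.6 and 24.3 CPM (-0.88), where 0.631% of all genes were lower. No other gene of the lists was lower by that fold there, and 2 were higher (1.30% of all genes were): Abcg1 (8.64 and 14.8 CPM, 0.78) and Gna14 (13.5 and 21.9 CPM, 0.70). In megakaryocyte-like cells none was lower by that fold, where 0.764% of all genes were. There 2 were higher (1.35% of all genes were): Vldlr (7.21 and 15.2 CPM, 1.08) and the complement regulator gene Cd59a (44.1 and 82.0 CPM, 0.90). In neutrophil progenitor-like cells Bace1, the β-secretase gene, was at 23.9 and 15.4 CPM (-0.64), and Tspan13 at 13.02 and 8.64 CPM (-0.59), where 0.999% of all genes were lower.
In lymphoid progenitor-like cells, where Apoe had its lowest ratio among the classes, other genes of the lists were also lower by at least 1.5-fold. Among them were the receptor gene Lrp8 (23.4 and 13 CPM, -0.85), the tetraspanin gene Cd9 (59.3 and 34.0 CPM, -0.80) and Plcl1 (32.1 and 17.3 CPM, -0.89), where 2.74% of all genes were lower. Apobr was higher (8.40 and 13 CPM, 0.63), where 3.35% of all genes were.

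Across the 24 WT clusters, the genes most like each member in level were taken by Pearson correlation of log2(CPM + 1) over 7879 genes. The clusters come from 1 library and share its depth, so these values are a description. Clu was most like the megakaryocyte and platelet genes Mmrn1 (r = 0.96) and Ppbp (0.95) and Proser2 (0.95), and Prdx2 was close in level to Minpp1 (0.96) and Mrpl47 (0.92). App was most like Csf2ra (0.92), a receptor chain for GM-CSF, Ikbke (0.91) and Sh2b2 (0.91). Plcb1 was most like Rap2a (0.88), Srd5a3 (0.87) and Trem2 (0.83), a receptor of macrophage lineage cells.
Cd63 was most like Dipk1b (0.88), Srgn (0.86), which encodes the granule proteoglycan serglycin, and Dach1 (0.86). Nedd4 was most like Pcdh7 (0.89), Tspan32 (0.88) and Dach1 (0.87), and Cacnb2 like Klk8 (0.91), Clnk (0.90) and Il12a (0.88). Apoe was most like Rela (0.86), Cat (0.83) and Osbpl8 (0.80). Likeness in level did not go with a like KO over WT ratio in most cases: over all cells Ppbp was at 0.53 and Mmrn1 at 0.01 beside -0.58 for Clu, and Pcdh7 was at 0.66 beside -0.30 for Nedd4. Minpp1 (-0.60) was on the side of Prdx2. Among the 8 genes themselves, Cd63 and Nedd4 were most alike (0.80) and App and Nedd4 least (-0.51).

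A few cells held a large part of some genes. The 1% of cells with the highest level, 45 WT and 47 KO cells, held 40.5% of WT and 49.1% of KO Clu UMIs, 24.8% and 29.6% of Plcb1 UMIs and 22.3% and 23.4% of Prdx2 UMIs. For Nedd4 the shares were 4.77% and 6.29%. Without those cells the all-cell log2 ratio of Clu was -0.68, that of Prdx2 -1.05 and that of Apoe -0.74, each further from 0 than with them.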

How the data were processed

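Single cells from 1 WT and 1 Phf6 KO library were measured with a 10x Chromium 3′ v3.1 kit, per the labels' protocols. The authors deposited UMI counts per gene and barcode, unnormalised. The matrix headers name Cell Ranger 6.0.2 and the submitters' processing notes Cell Ranger 3.0.1 with GRCm38. Libraries totalled 131667969 (WT) and 120408100 (KO) UMIs over 5287 and 5260 barcodes.

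Barcodes with under 500 genes or over 10% mitochondrial UMIs were left out, as were the highest Scrublet scores (0.8% of barcodes per 1000; 224 WT and 221 KO). Cells of both libraries were clustered together: 2000 variable genes without the 8 members (1994 left), 30 principal components, 15 neighbours, Leiden resolution 1. Clusters were given a class name if the class's marker genes had a median log2 fold of 1 or more, 3 or more of them were detected in 25% of the cells, and the top 10 genes at 100 CPM or more held no more markers of another class. UMIs were summed per library and class, and log2 ratios of CPM have exact conditional binomial intervals, levels exact Poisson and shares exact Clopper-Pearson ones. A count of 0 allows up to 3 counts. Genes with a mean of at least 10 CPM over both libraries were compared at 1.5-fold. For shares, each cell was thinned to 5000 UMIs; 243 WT and 199 KO cells were too shallow. The code for ratios and intervals was run on counts simulated with Poisson error alone. That checks the code and not the spread between cells, classes or mice.

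The members, gene lists and markers were chosen with earlier results of these data known. Named genes are the members, Phf6, up to 3 other genes per list by size of the ratio (all in short lists) and the 3 genes most like each member. Gene positions came from GENCODE M21 and promoters from RefSeq. Vector reads were not used here. The software was scanpy 1.11.5 with leidenalg 0.10.2 and scipy 1.17.1 under Python 3.11.15, and edgeR 4.0.16 under R 4.3.3. Values of some single genes are not reported here.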

Additional observations from a re-analysis of the deposited data

Results flagged for a closer look

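Some genes that were lower in the KO library in 1 class were higher in another, each with an interval for counting error that excluded 0, and the difference between classes was not tested. Apoe had log2 ratios of 0.48 (interval 0.33 to 0.62) in erythroid-like, 0.34 (0.22 to 0.46) in monocyte-like and 0.62 (0.13 to 1.12) in B cell-like cells, against -1.88 in lymphoid progenitor-like cells. Cd63 was at 0.21 (0.12 to 0.30) in basophil or mast cell-like cells and at -4.16 in B cell-like cells, where the KO library held 1 Cd63 UMI. Cacnb2 was at 1.84 (0.41 to 3.48) in B cell-like cells, from 6 WT and 16 KO UMIs, and at -1.21 in lymphoid progenitor-like cells. Nedd4 was at 0.17 (0.07 to 0.27) in erythroid-like cells and at -1.35 in cluster 4.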

How the results depend on the processing

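With 1 library per genotype, counting error is the only error known, and classes of about 60 cells (B cell-like, dendritic cell-like and cluster 17) give wide intervals. No paired analysis was possible because each genotype has 1 library and the labels give no replicate numbers. Over all cells, none of 72 alternative ratios changed sign, and 31 moved by less than counting error. Of 642 alternative ratios within classes and clusters, 520 moved by less than counting error and 24 changed sign. For lymphoid progenitor-like cells and clusters 4, 12 and 17, none of these alternatives came from another clustering. The cause of each change below was not tested unless the alternative's own construction shows it.

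All-cell log2 ratios that moved beyond counting error were these. With edgeR's TMM scaling, which shifts all genes by 0.07, they were -0.67 for Apoe, -0.74 for Cd63, -0.54 for App, -0.48 for Cacnb2, -0.36 for Nedd4, -1.02 for Prdx2 and -0.51 for Plcb1. With median-of-ratios scaling they were -0.67, -0.75, -0.55, -0.49, -0.37, -1.02 and -0.52 for the same genes. With KO clusters weighted by their share of WT cells they were -0.55 for Apoe, -0.56 for Cd63, -0.62 for App, -0.57 for Cacnb2, -0.41 for Prdx2 and -0.71 for Plcb1. With clusters weighted alike they were -0.27 for Apoe, -0.48 for Cd63, -0.35 for Clu, -0.66 for App, -0.20 for Nedd4, -0.45 for Prdx2 and -0.72 for Plcb1. As a mean per cell they were -0.61 for Cd63, -0.41 for Clu, -0.65 for App, -0.19 for Nedd4 and -0.72 for Prdx2. With doublets kept they were -0.56 for Apoe, -0.64 for Cd63 and -0.999 for Prdx2. Without the 1% of cells with the highest level, chosen after seeing the data as were the settings without shared barcodes, without Prg2-rich cells and with the clusters of a class weighted alike, they were -0.74 for Apoe, -0.68 for Clu, -0.56 for App, -0.49 for Cacnb2, -1.05 for Prdx2 and -0.52 for Plcb1.

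Of the 24 sign changes, 7 were in dendritic cell-like cells, 6 in B cell-like, 4 in basophil or mast cell-like, 3 in cluster 17, 2 in megakaryocyte-like, 1 in neutrophil progenitor-like and 1 in erythroid-like cells. In 17 of them the reported ratio was within 1.5-fold. Their alternatives lay between -0.11 (Apoe in neutrophil progenitor-like cells at resolution 0.5) and 0.45 (Nedd4 in dendritic cell-like cells with the stricter filter). In the other 7 it was past 1.5-fold. In B cell-like cells Apoe was at -0.046 without the top 1% of cells, -0.17 with doublets kept and -0.16 as a mean per cell, and Cacnb2 at -0.68 with doublets kept. App in dendritic cell-like cells was at 0.20 when genes that differ by 1.5-fold were left out of clustering, Cd63 in cluster 17 at -0.066 as a mean per cell, and Cd63 in erythroid-like cells at 0.54 with the members kept among the clustering genes.

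The count of members at least 1.5-fold lower differed from the reported one in 63 of 141 cases, in 34 of them by more than 1.5 times or to 0. The other 29 were changes by 1 gene, among them 2 to 4 in megakaryocyte-like cells in place of 3, 3 in lymphoid progenitor-like cells in place of 4, and 2 over all cells in place of 3 with doublets kept. At 2-fold it was 0 over all cells, 2 in HSC/MPP-like, 0 in erythroid-like, 1 in neutrophil progenitor-like, 1 in monocyte-like, 0 in basophil or mast cell-like cells, 3 in cluster 4 and 3 in cluster 12. At 50 CPM it was 0 in erythroid-like, 2 in monocyte-like, 0 in dendritic cell-like and 0 in B cell-like cells, 3 in cluster 4, 2 in cluster 12 and 0 in cluster 17. In monocyte-like cells it was 2 with the stricter cell filter of 1000 genes and 5% mitochondrial UMIs, at resolution 2 and with differing genes left out of clustering. In erythroid-like cells it was 2 with TMM scaling or as a mean per cell, and 0 with differing genes left out or members kept in. In basophil or mast cell-like cells it was 2 as a mean per cell and 0 with differing genes left out or members kept in. In dendritic cell-like cells it was 2 with the stricter filter, doublets kept, members kept in or the top 1% of cells left out. In B cell-like cells it was 3 with doublets kept, 2 at resolution 2, and 0 at resolution 0.5, with differing genes left out or without the top 1% of cells.

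Without thinning, the KO minus WT difference in the share of cells with a UMI was -11.4 percentage points for Apoe, -3.43 for Clu, -15.0 for App, -8.89 for Cacnb2 and -6.41 for Prdx2, against -8.43, -1.70, -6.78, -4.82 and -11.1 with it. Among the other genes of the lists, at 50 CPM 0 cholesterol genes were higher and 0 tetraspanins lower. With no minimum, 5 cholesterol genes were higher and 2 tetraspanins lower, 2 amyloid list genes were lower and 2 higher, 4 calcium channel genes were lower and 3 higher, 1 NEDD4 family gene was higher and 1 chaperone or complement gene was lower.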
